A study of Mus musculus with 45 samples.

Results

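The wild-type response to cardiac injury at the first sampling time was measured in 8 of the 45 RNA-sequencing libraries of the series. These were the 4 wild-type hearts with myocardial infarction labelled WT MI at T1 and the 4 wild-type hearts with a sham procedure labelled WT sham at T1, chosen by genotype, treatment and time alone. WT mice carried no transgene. The other hearts of the series (OE) overexpressed the receptor tyrosine kinase ERBB2 for a limited time in cardiomyocytes, and T1 lay during that overexpression, T2 was 2 weeks after it and T3 was 4 weeks after it. For the comparisons at the end, WT MI and WT sham hearts were used at T2 (3 and 4 libraries) and at T3 (4 and 4), and OE MI and OE sham hearts at T1 (4 and 4). All groups share the tissue preparation: whole hearts were perfused with saline, frozen and powdered, so each library mixes atria and ventricles. The libraries of MI hearts also mix scar, border zone and remote muscle. Sex, age, strain, the interval from infarction to harvest and any agent the WT mice received are not stated in the labels.

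Myocardial infarction kills heart muscle that is not replaced. In the mouse, inflammatory cells first clear the dead tissue, resident fibroblasts then become matrix-secreting myofibroblasts, and collagen laid down between and in place of the muscle is cross-linked into a scar. Surviving cardiomyocytes are known to lower genes of oxidative metabolism and to raise fetal genes, most often the natriuretic peptides.

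Depth was 14694009 to 18196299 reads assigned to genes in the 8 libraries. Erbb2, the gene overexpressed in OE hearts, was at 212, 272, 201 and 303 normalized counts in WT MI hearts 1 to 4 and 250.2, 243, 243 and 246 in WT sham hearts 1 to 4, a log2 fold change of -0.01 ± 0.13 (limma adjusted p = 0.963), whose sign turned under other scalings. The cardiomyocyte marker Myh6 was present in every heart, at 353637, 386533, 372588 and 312304 in WT MI and 367688, 439550, 403331 and 321400 in WT sham hearts. Several features differed between hearts of 1 group. Xist was high and the Y-linked genes were near 0 in WT MI 2 and 4 and in WT sham 3, with the opposite in the other 5 hearts. Transcripts of the skeletal muscle light chain Mylpf were at 294.63, 95.1, 7.59 and 6.29 in WT MI hearts and 496.52, 8.87, 9.09 and 7.42 in WT sham hearts. On the first principal component, which held 36.4% of the variance, WT MI 2, 3 and 4 lay at 36.3, 32.5 and 36.8 while WT MI 1, at -12.7, lay among the sham hearts (-42.5 to -8.33). The labels number the hearts of a group but say nothing more of their origin. Each p-value therefore sets a difference between groups against the spread among these samples only.

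Injured wild-type hearts had more transcripts of many extracellular matrix genes and of some macrophage genes than sham hearts. A few genes of the sarcomere and channel lists were slightly lower, with calls kept in only 2 to 4 of the 8 fits that left out 1 library. Of 14649 genes tested, 490 (3.34%) were called, of which 385 (2.63%) rose and 105 (0.717%) fell in WT MI against WT sham, at a limma adjusted p under 0.05. The increases were larger than the decreases: the median log2 fold change of the genes that rose was 0.89 and of those that fell -0.40, and 161 genes rose but 2 fell by at least 2-fold. All 4 MI hearts lay above all 4 sham hearts for 1097 tested genes (7.49%) and below them for 1082 (7.39%). Values after a gene's name are normalized counts in replicates 1 to 4, followed by the log2 fold change ± SE of WT MI over WT sham after adding 1 to each normalized count, so that the fold of a low gene is understated. The number of calls moved with single libraries, to 1368 without WT MI 1, 114 without WT MI 3, 255 without WT MI 4 and 102, 46, 148 and 52 without WT sham 1, 2, 3 and 4. With a term for the Xist-high libraries it was 150 (136 higher and 14 lower), and with scaling by library totals 579 genes were higher and 20 lower. A total of 39 genes, 38 higher and 1 lower, were called whichever library was left out. The authors' deposited table lists 646 genes as higher and 33 as lower at T1 when cut at their adjusted p of 0.05, 1.5-fold and a maximum count of 30.

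Some of the largest increases were in genes of scar-forming fibroblasts. Sfrp2, a secreted antagonist of WNT signalling (chromosome 3, 83766321 to 83774316 in GRCm38, plus strand), was at 544, 259, 918 and 664 in WT MI hearts against 42.3, 30.4, 44.3 and 60.4 in WT sham hearts. The lowest MI heart stood above the highest sham heart by a factor of more than 4, and the log2 fold change was 3.62 ± 0.37 (limma adjusted p = 0.0058). Postn, which encodes periostin, the secreted protein most used to mark activated cardiac fibroblasts (chromosome 3, 54361109 to 54391037, plus strand), was at 5538, 3429, 5395 and 6785 in WT MI against 1599, 1293, 1213 and 1212 in WT sham hearts. It rose by 1.96 ± 0.19 (limma adjusted p = 0.00556), with no overlap between the groups. Lox, the lysyl oxidase that starts collagen and elastin cross-linking (chromosome 18, 52516067 to 52529867, minus strand), was at 392, 532, 1191 and 724 in WT MI and 78.3, 81.1, 105 and 167 in WT sham hearts. Its increase of 2.65 ± 0.37 (limma adjusted p = 0.0155) kept its call in 7 of the 8 fits that left out 1 library and lost it without WT sham 2, where the limma adjusted p was 0.0677. Among the 5 Xist-low hearts the differences between the MI and sham means were 4.02, 2.01 and 2.73 for Sfrp2, Postn and Lox. Among the 3 Xist-high hearts the mean of WT MI 2 and 4 minus the single WT sham 3 gave 3.20, 1.99 and 2.56. The sham side of those values has no estimate of spread. A change in the number of cells of a type and a change in RNA per cell cannot be told apart in whole-heart RNA.

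**Figure D1:**
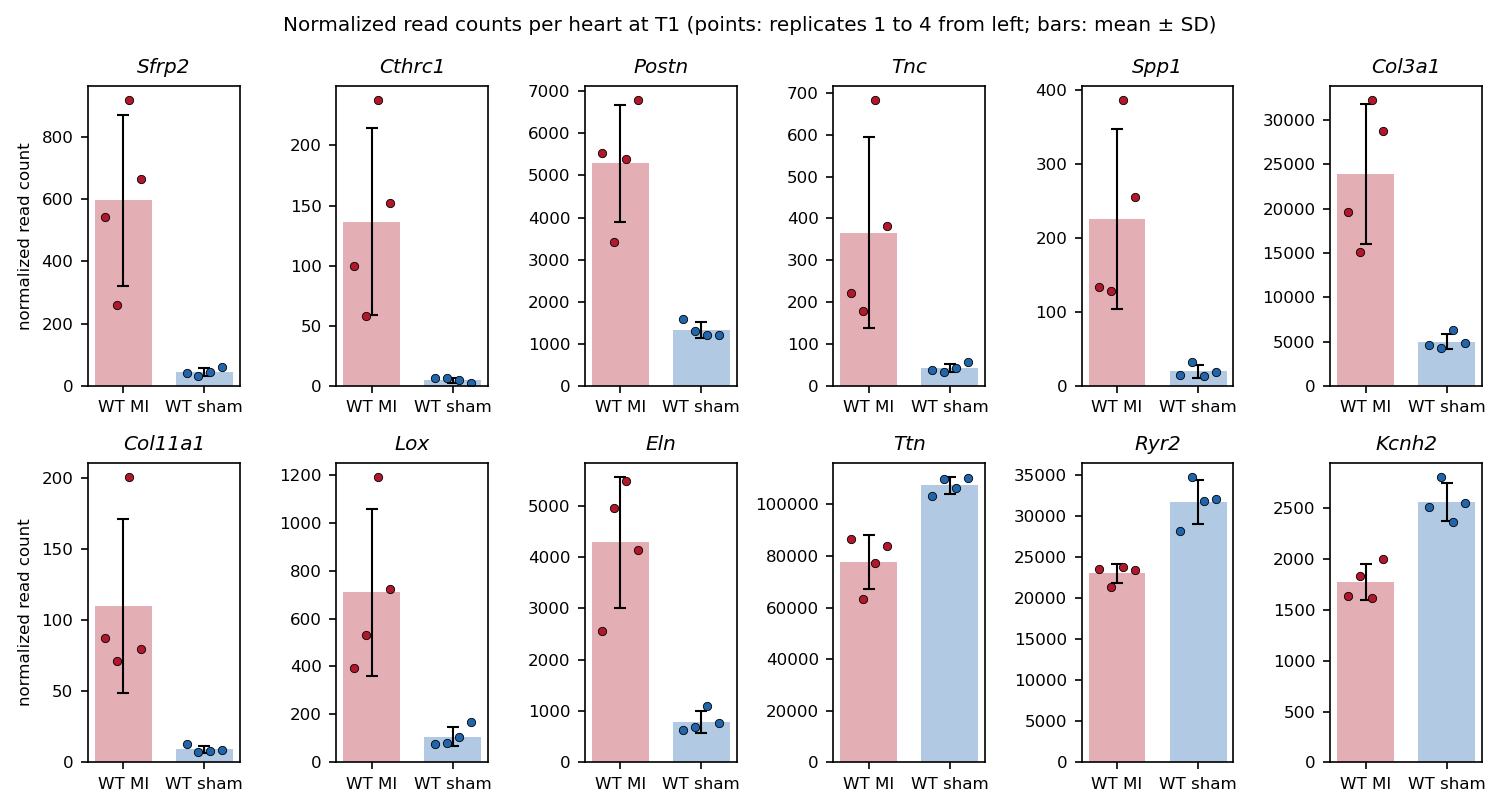
Normalized read counts of 12 genes in each wild-type heart at T1. Points are replicates 1 to 4 from left, bars the mean and whiskers the SD (n = 4 each), and each panel has its own linear axis from 0. For each of the 12 genes the WT MI hearts lay all above (the first 9 panels) or all below (Ttn, Ryr2 and Kcnh2) the WT sham hearts.

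Collagens rose as a group. Of 19 collagen genes tested, 13 rose and none fell, beside the 2.63% of all genes that rose. The gene lists here and below were chosen with earlier results of these data known. A share above that of all genes was thereby favoured in advance. All 19 had a fold change above 0, with a median log2 fold change of 1.11 beside -0.03 over all genes. Col3a1, the type III collagen chain that is laid down early in scars, was at 19659, 15104, 32245 and 28771 in WT MI hearts and 4615, 4297, 6262 and 4798 in WT sham hearts. It rose by 2.21 ± 0.24 (limma adjusted p = 0.00687), with no overlap between the groups. The type I chains Col1a1 and Col1a2, the bulk of mature scar collagen, rose by 1.93 ± 0.34 and 1.87 ± 0.29 (limma adjusted p = 0.0333 and 0.0209). The largest fold among the 19 was that of Col11a1, a minor fibrillar collagen better known from cartilage, at 87.4, 71.0, 201 and 79.7 in WT MI and 12.8, 7.60, 7.96 and 8.48 in WT sham hearts (3.33 ± 0.34, limma adjusted p = 0.0046). WT MI 3 had the highest count of both Col11a1 and Col3a1, and no MI heart overlapped a sham heart. Type V chains, which nucleate fibrils, also rose, Col5a2 by 1.71 ± 0.19 and Col5a1 by 1.11 ± 0.20, as did the fibril-associated Col12a1 (2.00 ± 0.28), Col14a1 (1.48 ± 0.31) and Col16a1 (1.23 ± 0.20), and Col8a2 (1.93 ± 0.30). The 3 beaded-filament chains Col6a1, Col6a2 and Col6a3 rose by close to 2-fold (1.03 ± 0.16, 0.91 ± 0.16 and 1.001 ± 0.17). Col6a5, a further type VI chain outside the list, was at 311, 129, 413 and 163 in WT MI and 21.8, 20.3, 7.96 and 53.0 in WT sham hearts (3.38 ± 0.56, limma adjusted p = 0.0265). The count of 13 collagens became 7 without WT MI 3 and 4, 3 and 4 without WT sham 1, 2 and 4.

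Enzymes that modify collagen rose less uniformly: 7 of 20 rose, none fell and the median was 0.46. P4ha3, a prolyl hydroxylase subunit, had the largest change, 3.19 ± 0.42, with 45.5, 28.4, 71.6 and 72.4 in WT MI and 8.98, 5.07, 4.55 and 2.12 in WT sham hearts. Adamts2, which removes the amino-terminal propeptide of fibrillar procollagen, was at 1352, 1284, 1772 and 1793 in WT MI and 706, 607, 800.2 and 663 in WT sham hearts (1.15 ± 0.13, limma adjusted p = 0.0058). Bmp1, which removes the carboxy-terminal propeptide, rose by 0.76 ± 0.15, the lysyl oxidase relatives Loxl2 and Loxl3 by 1.05 ± 0.23 and 0.86 ± 0.16, and the lysyl hydroxylase Plod3 by 0.36 ± 0.08.

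In the elastic fibre list 8 of 16 genes rose, none fell and the median was 0.89. Eln, tropoelastin, was at 2568, 4963, 5481 and 4143 in WT MI hearts and 626, 681, 1099 and 769.6 in WT sham hearts, and rose by 2.41 ± 0.26 (limma adjusted p = 0.00736). The lowest value, in WT MI 1, was well above the highest sham value. A pair of microfibril-associated genes moved the same way, Mfap4 rising by 1.96 ± 0.21 and the latent TGF-beta binding protein Ltbp2 by 2.07 ± 0.25. Smaller increases were found for Mfap2 (1.41 ± 0.28), Fbln1 (0.96 ± 0.16), Efemp1 (0.81 ± 0.14), Fbln5 (0.62 ± 0.13) and Ltbp3 (0.58 ± 0.10).

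Matricellular genes, whose products signal from the matrix more than they build it, had the highest median of the matrix lists, 1.33, with 11 of 19 rising and none falling. Cthrc1, a secreted protein made by activated fibroblasts, was at 99.4, 57.9, 238 and 152 in WT MI hearts and nearly absent from WT sham hearts, at 6.41, 6.33, 4.55 and 2.12 (4.45 ± 0.45, limma adjusted p = 0.0046). Spp1, osteopontin, was at 134, 129, 386 and 255 in WT MI and 14.1, 32.9, 13.6 and 19.1 in WT sham hearts (3.37 ± 0.40, limma adjusted p = 0.00831). Tnc, tenascin C, was at 222, 179, 682 and 382 in WT MI and 38.5, 32.9, 43.2 and 57.2 in WT sham hearts (2.89 ± 0.39, limma adjusted p = 0.0134, and 0.0616 without WT sham 2). In all 3 genes WT MI 3 was highest and WT MI 2 lowest. Sparc, an abundant collagen-binding protein, was at 22159.9, 18799.7, 27907 and 26609.7 in WT MI against 10036, 11239, 12183 and 9966 in WT sham hearts and rose by 1.12 ± 0.13 (limma adjusted p = 0.0058). Further increases were in Cilp (2.41 ± 0.40), Fn1 (2.06 ± 0.35), Comp (1.65 ± 0.28), Thbs3 (0.98 ± 0.14), Thbs2 (0.83 ± 0.17) and Tgfbi (0.69 ± 0.13). Ctgf, a target of TGF-beta, was not called, at 3047, 5651, 6128 and 1538 in WT MI and 1504, 1435, 1627 and 1163 in WT sham hearts (1.33 ± 0.41, limma adjusted p = 0.113). Its WT MI 4 value lay below WT sham 3.

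Small leucine-rich proteoglycans, which space collagen fibrils, rose by small amounts: 6 of 11 genes of the proteoglycan list rose and none fell, with a median of 0.75. Aspn was at 1510.3, 1284, 1381 and 1187 in WT MI and 730.02, 621, 529 and 559 in WT sham hearts (1.14 ± 0.11, limma adjusted p = 0.0046), and its groups were tight. Fmod, Lum, Bgn, Dcn and Prelp rose by 0.92 ± 0.13, 0.91 ± 0.15, 0.75 ± 0.14, 0.65 ± 0.10 and 0.42 ± 0.09. Among proteases and their inhibitors 7 of 18 rose and none fell, with a median of 0.79. The gelatinase Mmp2 was at 3743, 3433, 5446 and 4083 in WT MI and 1765, 1848, 1898 and 1485 in WT sham hearts (1.24 ± 0.14, limma adjusted p = 0.0058), and Mmp14, its membrane-bound activator, rose by 1.62 ± 0.26. The macrophage elastase Mmp12 rose by 2.502 ± 0.46, and Adam12, Mmp19, Mmp23 and the inhibitor Timp2 by 2.08 ± 0.34, 1.45 ± 0.23, 1.05 ± 0.17 and 0.76 ± 0.10. Timp1, an inhibitor often used as an injury marker, was at 149, 193, 477 and 595 in WT MI and 35.9, 51.9, 92.1 and 173 in WT sham hearts and was not called (2.01 ± 0.60, limma adjusted p = 0.101). Its WT MI 1 value lay below WT sham 4.

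Some genes of signalling and of fibroblasts also rose. Of 8 WNT antagonists tested, Sfrp2, Sfrp1 (1.004 ± 0.20) and Frzb (0.94 ± 0.15) rose and none fell, while Sfrp4 was at 2.10 ± 0.51 without a call (limma adjusted p = 0.0586). In the TGF-beta family 4 of 19 rose: the ligands Tgfb3 (0.85 ± 0.14) and Inhbb (1.15 ± 0.19) and the receptors Tgfbr2 (0.48 ± 0.09) and Tgfbr1 (0.52 ± 0.12). Their number was 0 without WT sham 1, 2 or 4, 1 without WT sham 3 and 2 with a term for Xist-high libraries. Tgfb1 and Tgfb2 were at 0.17 ± 0.09 and 0.26 ± 0.21, without a call. Of 18 fibroblast and myofibroblast markers 6 rose and none fell, with a median of 0.56. The dermatopontin gene Dpt was at 3298, 3292, 3895 and 4005 in WT MI and 1907, 1764, 2297 and 1868 in WT sham hearts (0.89 ± 0.10, limma adjusted p = 0.0058), and Pdgfra, the receptor that marks resident cardiac fibroblasts, at 1467, 1553, 1593 and 1382 in WT MI and 1019, 856, 1129 and 862 in WT sham hearts (0.64 ± 0.10, limma adjusted p = 0.0155). Pdgfrl, Runx1, Fstl1 and Pi16 rose by 1.64 ± 0.22, 1.62 ± 0.34, 1.13 ± 0.20 and 0.69 ± 0.14. The smooth muscle actin gene Acta2 (0.59 ± 0.30, limma adjusted p = 0.277) and the fibroblast factor Tcf21 (0.38 ± 0.18, limma adjusted p = 0.25) were not called.

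Over the 9 matrix, signalling and fibroblast lists together, 65 of 148 genes tested rose, none fell, 134 had a fold change above 0 and the median was 0.73. In 76 of the 148 all MI hearts lay above all sham hearts, beside 7.49% of all genes. The choice of the lists with earlier results known favoured such shares. The count of 65 became 19, 22, 26 and 35 without WT sham 2, WT sham 4, WT sham 1 and WT MI 3, and 39 with a term for Xist-high libraries, while the median stayed between 0.68 and 0.83 under the 13 alternatives tried on these lists. No gene of these lists was called lower under any of them.

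**Figure D2:**
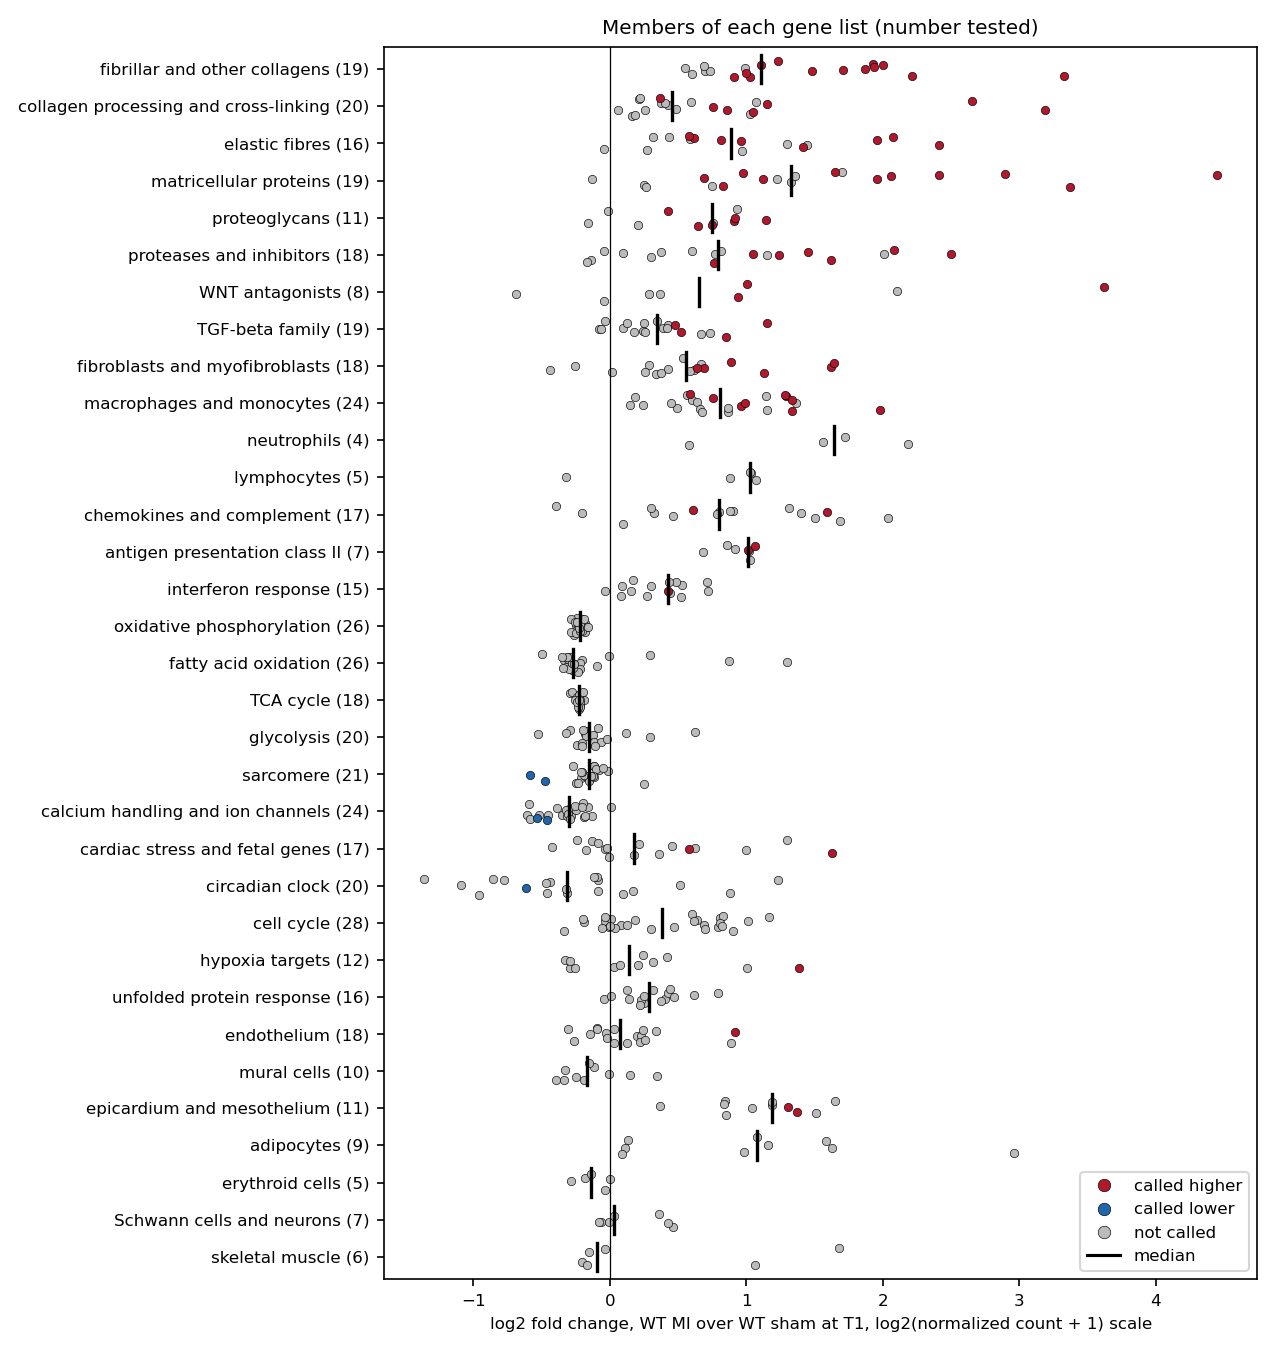
Log2 fold change of WT MI over WT sham at T1 for the members of the gene lists other than the sex-linked one, 1 point a gene. The number tested is in parentheses and a bar lies at the median. Red (higher) and blue (lower) points had a limma adjusted p below 0.05, and red points are concentrated in the matrix, fibroblast and macrophage rows at the top while blue points occur in 3 rows of heart muscle and clock genes.

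Because these genes moved together, the start regions of 4 of the genes with calls that held whichever library was left out, Sfrp2, Postn, Col3a1 and Sparc, are given with short motifs of factors known from fibroblast activation. Each covers 250 bases before to 50 after the start site in RefSeq (GRCm38.p6), 5′ to 3′ on the gene's strand. Capitals mark the motifs TGANTCA (AP-1), GGAATG (TEAD), CAGACA (SMAD) and TGTGGT (RUNX) on either strand; the E-box CACGTG was also searched.
Sfrp2, chr3:83766071-83766370, plus strand: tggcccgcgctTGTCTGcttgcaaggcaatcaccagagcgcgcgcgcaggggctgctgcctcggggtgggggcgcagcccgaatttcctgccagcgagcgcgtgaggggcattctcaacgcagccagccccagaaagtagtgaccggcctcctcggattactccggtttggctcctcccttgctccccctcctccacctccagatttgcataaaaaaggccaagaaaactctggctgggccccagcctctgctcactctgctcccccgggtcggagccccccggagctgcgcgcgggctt
Postn, chr3:54360857-54361156, plus strand: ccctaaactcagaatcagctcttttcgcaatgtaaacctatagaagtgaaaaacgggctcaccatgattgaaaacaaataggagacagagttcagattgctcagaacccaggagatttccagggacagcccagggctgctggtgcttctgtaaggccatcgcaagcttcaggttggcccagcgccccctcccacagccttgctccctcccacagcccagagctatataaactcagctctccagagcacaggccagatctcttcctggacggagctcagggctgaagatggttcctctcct
Col3a1, chr1:45311288-45311587, plus strand: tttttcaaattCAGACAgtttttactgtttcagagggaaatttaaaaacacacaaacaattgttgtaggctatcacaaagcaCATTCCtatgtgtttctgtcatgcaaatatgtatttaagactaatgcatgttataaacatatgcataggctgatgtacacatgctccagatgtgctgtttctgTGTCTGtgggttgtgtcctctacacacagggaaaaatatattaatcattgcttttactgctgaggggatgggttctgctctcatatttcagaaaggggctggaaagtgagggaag
Sparc, chr11:55420031-55420330, minus strand: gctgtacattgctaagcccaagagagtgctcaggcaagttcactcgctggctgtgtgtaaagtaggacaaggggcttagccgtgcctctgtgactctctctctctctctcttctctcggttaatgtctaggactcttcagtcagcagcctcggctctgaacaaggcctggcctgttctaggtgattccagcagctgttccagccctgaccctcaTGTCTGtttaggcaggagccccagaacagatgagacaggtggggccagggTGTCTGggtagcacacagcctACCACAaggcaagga
In these windows the SMAD motif was found at -239 in Sfrp2, at -239 and -65 in Col3a1, and at -36 and 15 in Sparc, counted from the start site to the first base of the match. The TEAD motif was at -168 in Col3a1 and the RUNX motif at 36 in Sparc, and none of the 5 motifs was in the Postn window. Of the 44 genes of the 9 lists above that rose and had a window, 13 (29.5%) held the SMAD motif, beside 18.3% of 289 genes that rose, 15.9% of 10688 genes tested and 21% of 27025 genes in RefSeq. The AP-1, TEAD, RUNX and E-box motifs were in 6.82%, 4.55%, 18.2% and 4.55% of the 44 and in 4.88%, 12%, 12.2% and 10.1% of the genes tested. These shares are descriptions of letters in fixed windows.

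Some macrophage genes rose. Of 24 macrophage and monocyte genes tested 9 rose, none fell and 15 were not called, with all 24 fold changes above 0 and a median of 0.81. Gpnmb, a glycoprotein of lipid-laden and scar-associated macrophages, was at 170.1, 208, 212 and 162 in WT MI and 48.8, 43.1, 58.0 and 38.2 in WT sham hearts (1.98 ± 0.16, limma adjusted p = 0.00443). The defining marker Adgre1 was at 333, 264, 441 and 344 in WT MI and 173, 152, 202 and 174 in WT sham hearts (0.96 ± 0.15, limma adjusted p = 0.0178). The resident-type receptor Mrc1 and the complement gene C1qb rose by 0.59 ± 0.11 and 0.76 ± 0.14, Ms4a7, Ctss, Cd14 and Tyrobp by 1.29 ± 0.25, 1.29 ± 0.26, 1.34 ± 0.27 and 0.99 ± 0.22, and Lyz2 by 1.34 ± 0.29. Lyz1, near-identical in sequence to Lyz2 and therefore uncertain, was at 35.9, 328, 174 and 219 in WT MI and 12.8, 19.0, 15.9 and 27.6 in WT sham hearts (2.94 ± 0.62). Cd68 and Ccr2, the receptor of recruited monocytes, were not called (0.56 ± 0.19 and 1.36 ± 0.33, limma adjusted p = 0.126 and 0.0555). With a term for Xist-high libraries 4 of the 24 were called. Without WT MI 3 and 4 the count was 5 and 3, and without WT sham 1 to 4 it was 2, 1, 2 and 1.

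Other immune lists gave 0 to 2 calls each, beside the 2.63% of all genes that rose. In each list most tested genes had a fold change above 0. Class II antigen presentation had 2 of 7 called, Cd74 (1.02 ± 0.15) and H2-Aa (1.06 ± 0.22). All 7 had a fold change above 0, with a median of 1.02. In 6 of the 7 all MI hearts lay above all sham hearts, beside 7.49% of all genes. The class II count was 5 with scaling by library totals, 1 with a term for Xist-high libraries and 0 to 3 without single libraries. Of 17 chemokine and complement genes 2 were called, among them the complement component C4b (1.59 ± 0.34), and Ccl2, a monocyte attractant, was at 0.88 ± 0.60 (limma adjusted p = 0.412). Of these 17 genes 15 had a fold change above 0, with a median of 0.80, and 5 lay higher without overlap. The summed count of the 22 listed was 22132 to 39440 in WT MI and 15447 to 16164 in WT sham hearts. The 2 calls became 1 with a term for Xist-high libraries and 1 to 6 without single libraries. The interferon list had 1 of 15 called, Gbp2 (0.42 ± 0.08), with 14 of 15 above 0 and a median of 0.42. Neutrophil genes were low in all 8 hearts: the summed count of 7 genes was 294 to 637 in WT MI and 97.5 to 218 in WT sham hearts. None of the 4 tested was called, though all 4 had a fold change above 0, with a median of 1.64. S100a8 was at 16.8, 10.9, 8.68 and 16.8 in WT MI and 1.28, 1.27, 18.2 and 2.12 in WT sham hearts. Lymphocyte genes summed to 104 to 301 in WT MI and 81.1 to 112 in WT sham hearts over 13 genes, with WT MI 2 and 4 highest, and none of 5 tested was called. Igha, the constant region of immunoglobulin A made by plasma cells, was at 46.7, 193, 315 and 413 in WT MI and 3.85, 3.80, 11.4 and 10.6 in WT sham hearts (4.62 ± 0.68, limma adjusted p = 0.0176). Saa3, an acute-phase protein of inflamed tissue, had the largest fold of the named genes, 5.11 ± 0.97 (limma adjusted p = 0.0342), with 34.7, 34.96, 598 and 115 in WT MI and 0, 1.27, 5.68 and 3.18 in WT sham hearts. WT MI 3 was far above the other injured hearts. The metalloprotease gene Adam8 and the interleukin-18 receptor Il18r1, both of leukocytes, rose by 2.52 ± 0.41 and 2.42 ± 0.50. Saa3, Igha, Lyz1, Adam8 and Il18r1 each lost the call in at least 4 of the 8 fits that left out 1 library.

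A few heart muscle genes fell, beside 0.717% of all genes. Of 21 sarcomere genes 2 fell, the giant spring protein titin, Ttn, at 86718, 63319.7, 77428 and 83920.2 in WT MI and 103298, 109937, 106278 and 110207 in WT sham hearts (-0.47 ± 0.10, limma adjusted p = 0.0431), and its Z-disc cap Tcap (-0.58 ± 0.10, limma adjusted p = 0.0265). Of 24 calcium-handling and channel genes 2 fell. The calcium release channel Ryr2 was at 23494, 21335, 23781 and 23437 in WT MI and 28137, 34777, 31809.9 and 32114 in WT sham hearts (-0.46 ± 0.08, limma adjusted p = 0.0265). The repolarizing potassium channel Kcnh2 was at 1639.7, 1830.1, 1621 and 2005 in WT MI and 2515, 2809.5, 2364 and 2549 in WT sham hearts (-0.53 ± 0.09, limma adjusted p = 0.0187). Each of the 4 kept the call in 2 to 4 of the 8 fits without a single library. With scaling by library totals Ttn lost the call (limma adjusted p = 0.0659). With a term for Xist-high libraries Ttn and Ryr2 lost it (limma adjusted p = 0.0736 and 0.051). The calcium pump Atp2a2 was at -0.25 ± 0.11 without a call. Of the 24 calcium-handling and channel genes only 1 had a fold change above 0, with a median of -0.30. In 9 of the 24 all MI hearts lay below all sham hearts, beside 7.39% of all genes. Their summed count was 317808 to 389490 in WT MI and 422836 to 476367 in WT sham hearts. Of the 21 sarcomere genes 1 was above 0 (median -0.15) and 6 lay below without overlap. With scaling by library totals the 2 medians were -0.20 and -0.05. Among called genes with a mean of at least 100 in WT sham hearts, the 12 that fell most were led by the chloride channel Clcn1, 202, 123, 121 and 167 in WT MI and 366, 361, 215 and 301 in WT sham hearts (-1.01 ± 0.21), the integrin Itgb6 (-0.85 ± 0.17), the urocortin receptor Crhr2 (-0.72 ± 0.16), Trabd2b (-0.66 ± 0.13) and the phosphodiesterase Pde4a (-0.65 ± 0.13). Ppp1r26, Phyhip, Car8, Etl4, Usp2, Lbh and the potassium channel Kcnj5 fell by between 0.61 and 0.64 on the log2 scale. Under scaling by library totals 4 of these 12, Clcn1, Itgb6, Trabd2b and Etl4, stayed called. Etl4 kept the call in 7 of the 8 fits without a single library and the other 11 in 1 to 3.

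Genes of energy metabolism had fold changes slightly below 0 that did not pass the test. All 26 oxidative phosphorylation genes had a fold change below 0, from -0.28 to -0.16 with a median of -0.22, and none was called. In 18 of the 26 all MI hearts lay below all sham hearts, beside 7.39% of all genes. Their summed count was 445477, 449309, 459448 and 373817 in WT MI hearts and 470812, 541347, 500526 and 493491 in WT sham hearts, with WT MI 4 farthest below. The TCA cycle had all 18 genes below 0 (median -0.23), 13 of them without overlap, and fatty acid oxidation had 23 of 26 below 0 (median -0.27), 8 without overlap, with no call in either list. With scaling by library totals the 3 medians were -0.12, -0.12 and -0.17. Genes encoded in the mitochondrial genome took 26.7%, 23.4%, 23.9% and 22.6% of reads in WT MI hearts and 25.6%, 28.2%, 24.7% and 25.9% in WT sham hearts, ranges that overlapped.

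The usual stress genes of the heart did not separate the groups. Nppa, atrial natriuretic peptide, was at 8941, 27991, 15687 and 18606 in WT MI and 10205, 7719, 15588 and 21917 in WT sham hearts (0.36 ± 0.41, limma adjusted p = 0.64). Nppb, brain natriuretic peptide, was at 3393, 3395, 4886 and 5044 in WT MI and 1102, 1039.95, 4062 and 3865 in WT sham hearts (0.99 ± 0.50, limma adjusted p = 0.273). WT sham 3 and 4 were at the level of the injured hearts for Nppb. The fetal myosin Myh7 (0.63 ± 0.43), the skeletal actin Acta1 (-0.04 ± 0.69), the stretch-response gene Ankrd1 (-0.004 ± 0.42) and the adult myosin Myh6 (-0.10 ± 0.11) were not called either, with limma adjusted p of 0.422, 0.981, 0.997 and 0.638, and the signs of the last 3 turned under some other settings. Of 17 stress and fetal genes, Gdf15, a cytokine of stressed cells, rose by 1.63 ± 0.32 and the actin cross-linker Actn1 by 0.58 ± 0.13. The atrial genes Myl4, Myl7 and Sln differed widely within the injured group: Myl7 was at 1589, 7138, 6213 and 3414 in WT MI hearts and 4406, 3188, 5109 and 5464 in WT sham hearts. The part of the share of atrial tissue in the Nppa values was not tested.

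Cell cycle genes gave no call among 28 tested, with a median of 0.38, and Mki67, a proliferation marker, was at 138, 154, 188 and 145 in WT MI and 144, 101, 120.5 and 58.3 in WT sham hearts (0.62 ± 0.25, limma adjusted p = 0.177). Among 12 hypoxia targets Hmox1, heme oxygenase 1, rose by 1.39 ± 0.28, among 18 endothelial genes Angpt2, a destabilizer of vessels, by 0.92 ± 0.20, and among 20 clock genes the deubiquitinase Usp2 fell (-0.61 ± 0.13). Gdf15, Actn1, Hmox1, Angpt2 and Usp2 each kept the call in 1 or 2 of the 8 fits without a single library. No gene of the unfolded protein response (16), mural (10), erythroid (5), Schwann and neuronal (7) or glycolysis (20) lists was called, nor any of the 6 skeletal muscle and 5 sex-linked genes tested. Of the 16 unfolded protein response genes 15 had a fold change above 0 (median 0.29). Of the 20 glycolysis genes 3 were above 0 (median -0.15, and -0.05 with library totals). In 5 of these 20 all MI hearts lay below all sham hearts, beside 7.39% of all genes. The glycolysis sum was 149725 to 165740 in WT MI and 172613 to 184520 in WT sham hearts.

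Markers of the epicardium and of tissues around the heart also varied between hearts. Of 11 epicardial and mesothelial genes Bnc1 and Aldh1a2 rose (1.37 ± 0.28 and 1.31 ± 0.27), each with a call in 1 of the 8 fits that left out 1 library. All 11 had a fold change above 0, with a median of 1.19. In 5 of the 11 all MI hearts lay above all sham hearts, beside 7.49% of all genes. The list had 9 calls without WT MI 1, none without any other single library and none with a term for Xist-high libraries. Its summed count was 1773, 3458, 4447 and 4169 in WT MI and 1264, 1295, 1873 and 2253 in WT sham hearts. WT MI 1 lay within the sham range. Adipocyte genes had a median of 1.08 with no call, and the summed count of 10 genes was 14805, 29629, 13495 and 19181 in WT MI and 12288, 13275, 15746 and 20425 in WT sham hearts. Adipoq was high in WT MI 2 and 4 and in WT sham 3 and 4, at 87.4, 970.2, 96.5 and 863 in WT MI and 38.5, 15.2, 242 and 513 in WT sham hearts. Without WT MI 1 and WT sham 1, the 2 hearts with the most Mylpf transcripts, 654 genes were called, 59 of the matrix, signalling and fibroblast genes rose and none fell. The part of pericardial, fat or skeletal tissue in the other results was not tested.

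**Figure D3:**
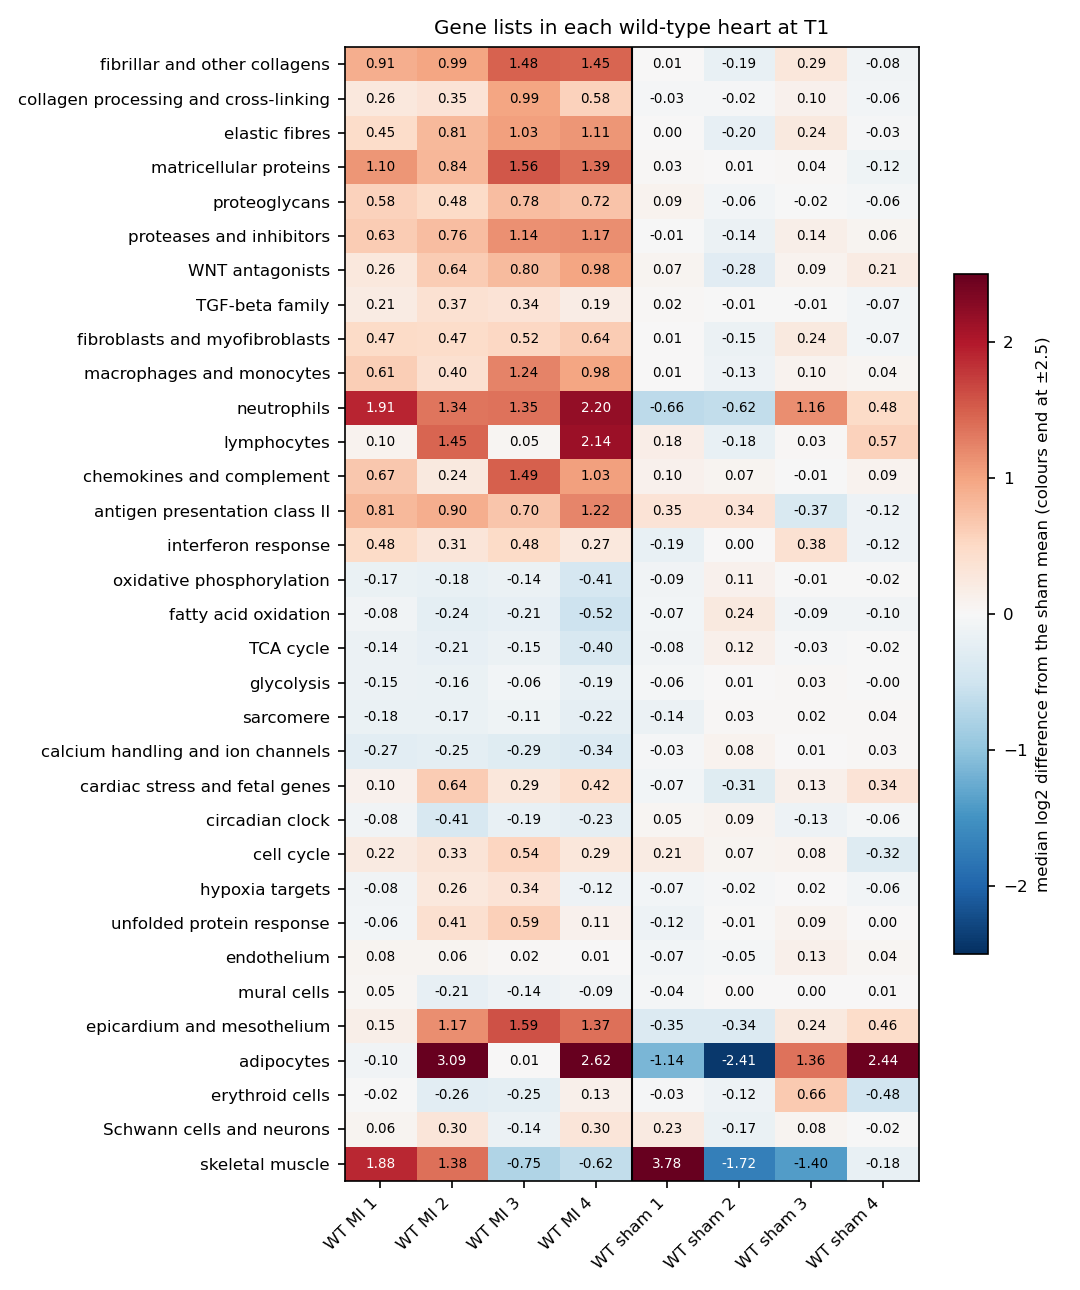
Median log2 difference of each gene list from the WT sham mean, in each of the 8 hearts (WT MI 1 to 4 at left, WT sham 1 to 4 at right); red is higher and blue lower than the sham mean. The collagen row reads 0.91, 0.99, 1.48 and 1.45 in WT MI hearts, while the adipocyte and skeletal muscle rows differ as much within groups as between them.

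The same comparison 2 and 4 weeks after the end of the overexpression period in OE hearts asked which wild-type changes were found again. These libraries came from a second experiment with its own sham hearts and its own normalization, and time and experiment cannot be told apart. Xist was high in WT MI 2 and 3 and WT sham 1 of T2. At T3 it was high in WT MI 2 and 4 and WT sham 2, 3 and 4. The comparisons within T2 and within T3 were not fitted with a term for Xist-high libraries. How far the genes found again depend on it was not tested. At T2, 1460 genes rose (9.67% of 15102) and 1217 fell (8.06%) in WT MI against WT sham, and at T3 995 rose (6.59%) and 682 fell (4.52%). Of the genes that rose at T1, 277 of 383 tested again (72.3%) rose at T2 and 209 (54.6%) at T3, 183 at both, and these were 19.7% of the 1408 genes risen at T2 and 22.2% of the 942 risen at T3 that had been tested at T1. Of the 105 that fell at T1, 46 (43.8%) fell at T2 and 23 (21.9%) at T3, which were 3.82% of 1204 and 3.41% of 674. No gene called at T1 was called in the opposite direction later. These counts moved with the T1 libraries: the genes that rose at both T1 and T2 numbered 513, 95 and 134 without WT MI 1, 3 and 4 of T1 and 84, 42, 116 and 48 without WT sham 1 to 4 of T1. Those that rose at T1 and T3 ranged from 35 (without WT sham 2 of T1) to 351 (without WT MI 1 of T1). Those that fell ranged from 0 (without WT sham 2 or 4 of T1) to 196 at T2, and from 0 (without WT MI 3 or WT sham 2 of T1) to 74 at T3, both highest without WT MI 1 of T1. The number of calls was 1501 and 1348 without WT MI 2 and 3 of T2, and at T3 it was 822, 780 and 1046 without WT MI 1, 3 and 4 of T3 and 1046, 1098 and 777 without WT sham 2, 3 and 4 of T3.

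Collagens were called higher in 18 of 19 genes at T2 and 14 of 19 at T3, with medians of 1.44 and 0.99 beside 1.11 at T1. Sfrp2 was at 989, 1642 and 1139 in WT MI 2 to 4 and 26.1, 36.3, 45.3 and 35.2 in WT sham hearts at T2, and at 1177, 309.6, 761 and 924 in WT MI and 54.9, 75.1, 101 and 65.4 in WT sham hearts at T3. Its log2 fold changes were 3.62 ± 0.37 at T1, 5.09 ± 0.38 at T2 and 3.28 ± 0.35 at T3. Postn changed by 1.96 ± 0.19, 2.05 ± 0.23 and 1.68 ± 0.21, and Cthrc1 by 4.45 ± 0.45, 4.65 ± 0.42 and 2.35 ± 0.38. Oxidative phosphorylation genes, without a call at T1, were called lower in 26 of 26 genes at T2 and 13 of 26 at T3, and macrophage genes higher in 7 and 20 of 25. Because T2 and T3 were fitted together on more libraries than T1, counts of calls are not on an equal footing. The oxidative phosphorylation medians were -0.22, -0.39 and -0.26 at T1, T2 and T3. No gene of that list was called for T2 minus T1 or T3 minus T1. Myh6, Nppb and Ankrd1, which were not called at T1, were at -0.65 ± 0.11, 2.04 ± 0.48 and 1.52 ± 0.18 at T2, each with a call.

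The difference between times itself, tested in a joint scaling of the reads of both experiments over 15504 genes, gave almost no calls. For T2 minus T1, 1 gene (0.00645%), the ATP synthase subunit Atp5j, was called lower (-0.80 ± 0.12, limma adjusted p = 0.00895), and 1350 genes had an unadjusted p under 0.05. Without WT MI 1 and WT MI 4 of T1 there were 8 and 26 calls, and without WT MI 3 of T2 none. For T3 minus T1, 2 genes (0.0129%) were called lower, Eln (-2.02 ± 0.32, limma adjusted p = 0.0266) and the elastic fibre protein gene Emilin2 (-1.79 ± 0.26, limma adjusted p = 0.0209), and 1764 had an unadjusted p under 0.05. Eln was at 682, 602, 900.1 and 946 in WT MI and 584, 681, 671 and 437 in WT sham hearts at T3, where the groups overlapped, against 2.41 ± 0.26 without overlap at T1. Both calls of T3 minus T1 depended on single libraries: the number was 0 without any one of WT MI 2, WT MI 3, WT sham 1, WT sham 2 or WT sham 4 of T1 or WT sham 3 of T3, 68 without WT MI 1 and 162 without WT MI 4 of T1, and 2 to 16 without any of the other libraries.

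OE hearts at T1 were compared with their own sham hearts, which share no library with the wild-type comparison. In OE MI against OE sham none of 15375 genes rose and 1 (0.0065%) fell. Of the 385 genes that rose in WT, 318 were above 0 in OE and none was called. Their median log2 fold change was 0.17 in OE, beside 0.89 in WT and -0.01 over all genes in OE. The 385 were chosen by their WT values, which in itself favours a larger median in WT than in OE. The difference of the responses, OE minus WT, was called for 14 genes (0.0911% of those tested), 12 of them lower (0.078%) and 2 higher (0.013%), and 1467 had an unadjusted p under 0.05. Of the 385, 10 were among the 12 lower: Ctsk, Fbln7, Mmp2, Postn, Adamts12, Col3a1, Sparc, Pamr1, Itm2a and Col5a2. The WT values that chose the 385 also enter this difference, so that overlap was favoured in advance. Ctsk, a collagen-degrading protease, had the smallest p (-1.60 ± 0.19, limma adjusted p = 0.00496), with 689, 592, 733 and 635 in OE MI and 769, 637, 789.7 and 697 in OE sham hearts. Postn was at 16202, 21037, 20852 and 15323 in OE MI and 18478, 19533, 16751 and 12072 in OE sham hearts, so both OE groups lay above all WT MI hearts, and the difference was -1.81 ± 0.27 (limma adjusted p = 0.0218). For Col3a1 it was -2.06 ± 0.33, with 47233, 52117, 36287 and 27631 in OE MI and 33312, 35609, 42219 and 32096 in OE sham hearts. Mmp2 and Fbln7, a fibulin, differed by -1.27 ± 0.19 and -2.32 ± 0.30, and the glycolytic enzyme Eno2, not called in WT, by -2.84 ± 0.44. The chromatin organizer Satb1, not called in WT, and Ankrd63, called lower in WT MI, differed upwards, by 0.98 ± 0.16 and 1.47 ± 0.26. Sfrp2 was not among the calls (-1.95 ± 0.68, limma adjusted p = 0.351), with 1275, 493, 293 and 207 in OE MI and 141, 170.03, 94.8 and 162 in OE sham hearts. Leaving out 1 library of T1 moved the 14 calls to between 2 and 56, with 30, 56, 3 and 3 without WT MI 1 to 4, 3, 2, 22 and 3 without WT sham 1 to 4, 22, 23 and 2 without OE MI 1 to 3, and 2, 4 and 3 without OE sham 1 to 3.

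**Figure D4:**
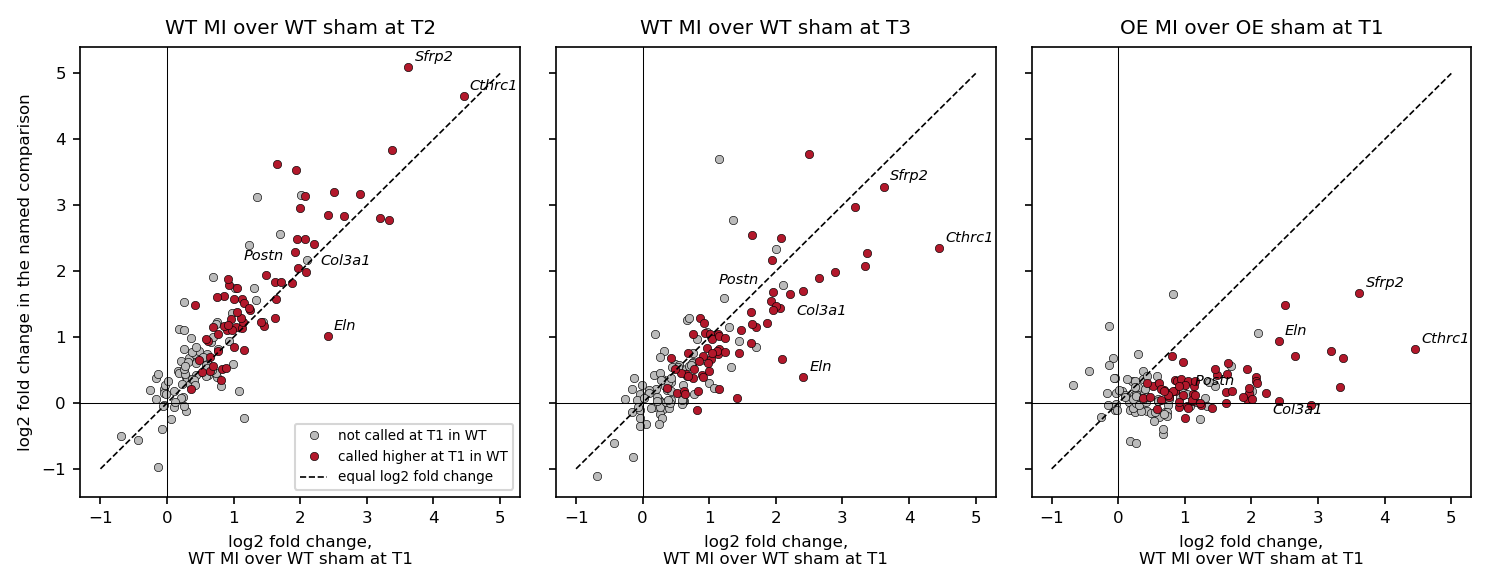
Log2 fold changes of the genes of the 9 matrix, signalling and fibroblast lists: WT MI over WT sham at T1 on the x axis against the same at T2 (left), at T3 (middle) and OE MI over OE sham at T1 (right) on the y axis. Red points were called higher at T1 in WT, which fixes their place on the x axis, and the dashed line marks equal values; Eln lies at 1.02 at T2 and 0.39 at T3, and Sfrp2 at 1.66 in OE.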

How the data were processed

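Poly(A) RNA of powdered whole mouse hearts was sequenced in 45 libraries. The authors deposited normalized counts for 19432 genes in a table of 16 libraries (T1) and a table of 29 (T2 and T3), a signal scaled separately within each table; tools in the submitters' processing notes are cutadapt, STAR, HTSeq and DESeq2, on GRCm38, with no versions. The authors also deposited a table of log2 fold changes, adjusted p-values and, as a score used for filtering, the largest count among the libraries compared. Multiplying each column back gave whole reads within 0.1 reads for 100% of values, so depth is known. From the deposited values, log2(normalized count + 1) of genes with at least 10 in at least 4 libraries was tested with limma 3.58.1 (R 4.3.3; trend, robust; Benjamini-Hochberg, 0.05) on the 8 WT libraries of T1. T2 and T3 were fitted together, differences between times on TMM-scaled log2 CPM of the recovered reads (prior count 2, edgeR 4.0.16), and OE minus WT as an interaction over the 16 libraries of T1. Alternatives were other scalings, filters and pseudocounts, edgeR and DESeq2 1.42.0 on recovered reads, a replicate block, a term for Xist-high libraries and leaving out libraries; that term and the removal of WT MI 1 with WT sham 1 were chosen after seeing the data. On simulated data of the T1 design, 40.3% of genes changed by 1.5-fold and 76.1% of those changed by 2-fold were recovered, with 4 false calls among 146. The simulation drew each gene independently, without differences shared by many genes of a heart. Its number of false calls therefore cannot be carried over to the real hearts.

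The members and gene lists were chosen with earlier results of these data known. The rule for named genes took Sfrp2, Postn, Lox, Erbb2 and the standard stress genes, in each direction the 12 called genes that changed most (a mean of at least 100 in the higher group, no overlap between groups, no predicted gene), up to 5 called members of each list with the smallest p, and up to 5 genes each way for each difference between times or genotypes. Other genes are named after their values were seen, among them the further called members of a list. Gene coordinates are those of GENCODE M21 and promoter windows those of RefSeq (GRCm38.p6). One withheld gene is not reported here.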

Additional observations from a re-analysis of the deposited data

Results flagged for a closer look

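Single hearts stood apart from the other 3 of their group in 19 of 246 gene or list values screened with Dixon's criterion, which chance passes about 1 time in 20. In WT MI 2, Myh7 was at 24944.6 (others 13756.2 to 15630), Ryr2 at 21334.6 (23437.4 to 23781.1) and Gdf15 at 32.78 (79.7 to 87.86). In WT MI 3, Saa3 was at 597.67 (34.73 to 115.36), Col11a1 at 200.67 (71.02 to 87.43) and Hmox1 at 1227.89 (449.14 to 574.69). In WT MI 4, Kcnj5 was at 1700.99 (1210.53 to 1286.02), Ppp1r26 at 78.65 (65.56 to 66.17), Frzb at 606.15 (376.08 to 413.01), Tgfbr2 at 2435.08 (1894.61 to 1975.25) and the oxidative phosphorylation sum at 373817 (445477 to 459448). In WT sham 1, Col11a1 was at 12.83 (7.6 to 8.48). In WT sham 2, the fatty acid oxidation sum was 295447 (237459 to 240586) and the TCA cycle sum 366716 (317017 to 320276). In WT sham 3, Trabd2b was at 2413.17 (2846.26 to 2924.61), Pde4a at 1945.99 (2193.91 to 2235.6), Bmp1 at 915.03 (821.11 to 836.36), C4b at 387.61 (551.21 to 574.78) and the sex-linked sum at 5919.83 (3412.74 to 3460.6).

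Of the 14 genes whose injury response differed between OE and WT at T1 by limma's test of the difference, those with the smallest p, up to 5 each way, were Satb1 (0.98), Ankrd63 (1.47), Ctsk (-1.60), Fbln7 (-2.32), Mmp2 (-1.27), Postn (-1.81) and Eno2 (-2.84), each as OE minus WT on the log2 scale. Between times, Atp5j (-0.80) differed for T2 minus T1, and for T3 minus T1 Emilin2 (-1.79) and Eln (-2.02).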

How the results depend on the processing

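The T1 counts rested on few libraries: leaving out 1 library gave 46 to 1368 called genes, 44 to 879 higher and 2 to 489 lower. With all 16 libraries of T1 in the fit 891 were called (662 higher and 229 lower), with DESeq2 1395 (981 and 414), with scaling by library totals 579 were higher and 20 lower, and with a term for Xist-high libraries 150 were called (136 and 14). The lower count was 59 with no filter, 69 with TMM scaling and 57 with a replicate block. Replicate numbers did not pair the hearts: correlations of same-numbered deviations were -0.2222 to 0.1878, 0 of 4 were best with their own number, and the block gave 459 calls. Leaving out 1 library gave 1348 to 2744 calls at T2, 777 to 2151 at T3, 0 to 26 for T2 minus T1, 0 to 162 for T3 minus T1 and 2 to 56 for OE minus WT. Library totals gave 2823 calls at T3, 25 for T3 minus T1 and 9 for OE minus WT, and T3 minus T1 had 5 with a replicate block and 1 with the term for Xist-high libraries. The cause of these moves was not tested.

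Signs turned only for uncalled genes. Erbb2 was at 0.0085 with TMM scaling, 0.091 with library totals, 0.023 with edgeR, 0.029 with DESeq2, 0.062 without WT MI 1 and WT sham 1, and -0.12 to 0.079 without single libraries. Myh6 was at 0.0055 with library totals. Acta1 was at 0.068 with library totals, 0.26 with edgeR and DESeq2 and -0.55 to 0.33 without single libraries. Ankrd1 was at 0.018 with TMM scaling, 0.10 with library totals, 0.14 with edgeR and DESeq2, 0.049 with the term for Xist-high libraries and -0.25 to 0.34 without single libraries. Of the 84 named genes called, 22 kept the call in all 8 fits without 1 library, 48 with the term for Xist-high libraries and 75 with library totals.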

Other observations

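Among genes outside the lists, picked after their values were seen, several were called whichever library was left out. C1qtnf3, a secreted protein of the C1q and TNF family, averaged 68.1 in WT MI and 1.54 in WT sham hearts (log2 fold change 4.90 ± 0.49). Gas1, a growth arrest protein, averaged 1742 in WT MI and 974 in WT sham hearts (0.83 ± 0.07), and Vim, the intermediate filament of mesenchymal cells, 9811 and 6263 (0.65 ± 0.08). Kcne4, a potassium channel subunit, averaged 110.04 in WT MI and 45.2 in WT sham hearts (1.26 ± 0.13). Ehbp1 was the 1 gene that fell in all 8 of these fits, with means of 1588 in WT MI and 2251 in WT sham hearts (-0.50 ± 0.06).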
